A study of Mus musculus with 6 samples.

Results

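10 heat shock chaperone genes were followed in primary oviductal smooth muscle cells of the mouse, from WT females and from females lacking Pbrm1 in the reproductive tract (Pbrm1 cKO). They were taken by symbol from a table of 54232 genes and were Hspa1a, Hspa1b, Hspa8 and Hspa5 (HSP70 family), Hsp90aa1 (HSP90), Hsph1 (HSP110), Dnajb1 (HSP40), Hspb1 (small heat shock protein) and the mitochondrial chaperonin genes Hspd1 and Hspe1. All 10 of 10 were in the table, and all 10 were among the 15376 genes with enough counts to be tested. RNA was sequenced from 3 WT and 3 Pbrm1 cKO libraries, with oviducts of mice aged 8 to 12 weeks on day 2 of pregnancy. Pbrm1 encodes a subunit of the PBAF chromatin-remodeling complex. In the study's cKO mice a floxed Pbrm1 allele is cut by cre expressed from the Pgr locus, so the deletion is limited to cells that express or have expressed the progesterone receptor. The labels call the controls WT, whereas the study elsewhere names floxed mice, and no source used here gives the strain or says whether a library came from 1 animal or a pool. A legend of the study, for RNA tracks of oviductal smooth muscle cells, calls its 3 replicates biological. If libraries of a group instead came from the same animal or the same pool, the p-values would measure technical spread only.

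The same handling before lysis is described for cells of both groups, but no digestion time, day or batch is given for each library. Tissue pieces were digested with trypsin, collagenase and dispase for 30 to 45 min at 37 °C, filtered, plated in serum for 4 h, and lysed 2 h after a change of medium. The values below are therefore those of cells that had been dissociated and briefly cultured, in WT as in cKO.

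Molecular chaperones bind unfolded proteins and keep them from aggregating. HSP70 proteins bind and release short hydrophobic stretches with the help of HSP40 proteins, which deliver substrates and stimulate ATP hydrolysis, and of HSP110 proteins, which exchange the nucleotide. HSP90 acts later, on nearly folded clients that include steroid receptors, and the small heat shock proteins hold unfolded proteins without ATP. Hspa5 works in the endoplasmic reticulum (ER), and HSPD1 and HSPE1 together form the folding chamber of the mitochondrial matrix. Under heat and other stress the transcription factor HSF1 induces many of these genes through heat shock elements, which are inverted repeats of the letters GAA and TTC. In smooth muscle several small heat shock proteins are abundant and associate with the contractile cytoskeleton.

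Pbrm1 itself was measured at 170.1, 183 and 172 CPM (each gene's count brought to one library size with trimmed mean of M values factors) in WT, against 43.5, 50.7 and 42.7 CPM in cKO. It fell by 1.94 on the log2 scale (SE 0.0637, edgeR adjusted p = 9.13e-11), so the libraries match their labels. Libraries held 15390818 to 18947947 counts, at which 3 counts correspond to 0.159 to 0.193 CPM, and the 10 chaperones had 187 to 43203 counts in a library. Mitochondrially encoded genes took 7.95 to 8.24% of the counts in WT and 6.88 to 7.81% in cKO. The smooth muscle markers Acta2, Myh11, Tagln, Cnn1, Des, Myl9, Smtn and Lmod1 were all expressed, with a summed level of 3663 to 3738 CPM in WT and 4585 to 5134 CPM in cKO. Markers of other cells were present as well and are given with the results they move with.

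6 of the 10 chaperones differed between the groups at an edgeR adjusted p under 0.05: Hspa1a, Hspa1b, Hspa8 and Hspb1 were higher in cKO, and Hspd1 and Hsph1 were lower. The threshold was passed by 43.7% of all tested genes (21.9% higher and 21.8% lower), so 6 of 10 was not far from the background of this comparison. The groups did not overlap in 6 of 10 chaperones, against 53.5% of all genes tested. The median log2 fold change of the 10 genes was 0.02, against 0.00 over all tested genes. What set some members apart was size: Hspa1a and Hspa1b rose past 2-fold, as 3.62% of tested genes did, whereas the other 8 stayed within 0.40 of no change on the log2 scale. Summed over the 10 genes, WT libraries held 4877 ± 92.3 CPM and cKO libraries 4823 ± 84.2 CPM (mean ± SD, n = 3 each, as below; exact permutation test, two-sided p = 0.6, where 0.1 is the smallest p that 20 splits allow). The sum reflects mainly the abundant members and can hardly register the others. In WT, Hspa5 alone had a mean of 2316 CPM, and Hspa1a plus Hspa1b had 48.3 CPM. In bulk RNA of this kind, fewer cells of a type and less RNA per cell cannot be told apart.

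**Figure D1:**
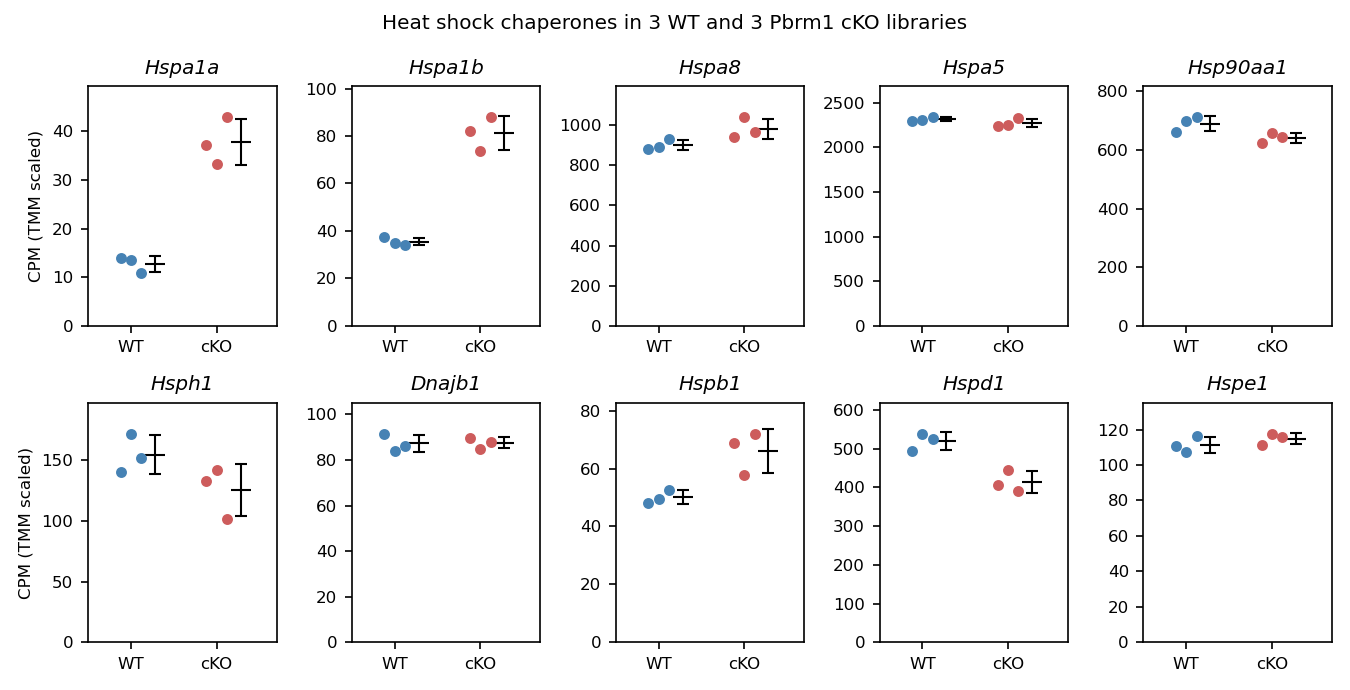
Level of each chaperone in CPM by library, with WT in blue and Pbrm1 cKO in red, 1 point per library, and the mean and SD of 3 libraries beside them; every vertical axis starts at 0. The points of Hspa1a (10.9 to 13.9 CPM in WT, 33.4 to 42.9 CPM in cKO) and Hspa1b are far apart between groups, while those of Hspa5, Dnajb1 and Hspe1 overlap.

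The stress-inducible cytosolic HSP70 genes changed most. Hspa1a and Hspa1b encode nearly the same protein from intronless copies that lie close together on chromosome 17 (GRCm38, Hspa1a at chr17:34969190-34972156 and Hspa1b at chr17:34956436-34959238, both on the minus strand). Hspa1a was at 13.9, 13.5 and 10.9 CPM in WT and at 37.2, 33.4 and 42.9 CPM in cKO. The lowest cKO library was above the highest WT library by a wide margin. Its mean went from 12.8 ± 1.59 to 37.8 ± 4.80 CPM, a 2.96-fold rise (log2 fold change 1.56, SE 0.106, 95% interval 1.33 to 1.79, edgeR adjusted p = 1.14e-07). Hspa1b was at 37.3, 35.1 and 34.2 CPM in WT and at 81.9, 73.7 and 87.9 CPM in cKO. These groups too were well separated, and cKO replicate 2 was the lowest cKO library for both genes. The Hspa1b mean went from 35.5 ± 1.595 to 81.2 ± 7.13 CPM (log2 fold change 1.19, SE 0.0684, 95% interval 1.04 to 1.34, edgeR adjusted p = 2.34e-08). Only 2.33% of tested genes had a larger absolute change than Hspa1a, and 4.50% a larger one than Hspa1b.

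The copies are so alike that their counts cannot be fully separated. Of all 50-base stretches in the Hspa1a transcript, 58.8% also occur in Hspa1b, and reads that map to several places were left out of the table, so both genes were counted mainly over the stretches that differ. With the counts of both genes added and tested as 1 gene the log2 fold change was 1.30, and the sum went from 48.3 ± 3.03 to 119 ± 11.9 CPM. The ratio of Hspa1a to Hspa1b counts was 0.372, 0.384 and 0.320 in WT and 0.454, 0.453 and 0.488 in cKO. The ratio was higher in every cKO library than in every WT library (exact permutation test, two-sided p = 0.1, the smallest p possible with 3 against 3). Gm20481, which overlaps 19.0% of Hspa1a bases on the opposite strand, had 4 counts in all 6 libraries together.

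The sequences just before the starts of Hspa1a and Hspa1b are shown because these genes moved most, with that of Hspb1, the other called member whose 250 bases before the start lie outside annotated exons. They are 250 bases each from RefSeq on GRCm38.p6, read 5′ to 3′ on the gene's strand up to the base before the start (Hspa1a chr17:34972157-34972406 and Hspa1b chr17:34959239-34959488, minus strand, and Hspb1 chr5:135887669-135887918, plus strand). Capitals mark inverted heat shock units, searched on both strands as GAANNTTC or TTCNNGAA.
Hspa1a: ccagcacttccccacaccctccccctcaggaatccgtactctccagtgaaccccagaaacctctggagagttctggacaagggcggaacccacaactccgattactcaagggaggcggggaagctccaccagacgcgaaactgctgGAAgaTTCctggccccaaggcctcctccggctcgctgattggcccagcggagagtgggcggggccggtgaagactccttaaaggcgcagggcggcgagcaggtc
Hspa1b: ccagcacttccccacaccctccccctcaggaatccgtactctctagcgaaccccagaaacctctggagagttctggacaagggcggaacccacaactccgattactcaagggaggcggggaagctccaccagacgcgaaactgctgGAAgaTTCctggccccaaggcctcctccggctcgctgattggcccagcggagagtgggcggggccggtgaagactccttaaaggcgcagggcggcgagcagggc
Hspb1: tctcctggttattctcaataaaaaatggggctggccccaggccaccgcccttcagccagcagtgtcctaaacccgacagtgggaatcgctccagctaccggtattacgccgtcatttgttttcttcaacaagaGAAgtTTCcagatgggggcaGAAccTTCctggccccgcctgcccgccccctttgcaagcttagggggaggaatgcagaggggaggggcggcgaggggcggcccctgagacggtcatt
The Hspa1a and Hspa1b stretches are 98.8% identical and differ at 3 of 250 bases, C44T, T47C and T249G, with positions counted from the 5′ end of the stretch and the Hspa1a base first. The GAANNTTC match lies 104 to 97 bases before the start in both genes, and Hspb1 has 2 such matches, at 117 to 110 and at 97 to 90 bases before its start.

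RefSeq stretches were at hand for 8 of the 10 genes, in 11 stretches because some genes have several starts; Hspa8 and Hsp90aa1 had none. A pair of inverted heat shock units, by either set of letters, was found in 6 of these 8 genes (Hspa1a, Hspa1b, Hsph1, Hspb1, Hspd1 and Hspe1). It was found in 12.8% of 32851 stretches of the same length before all starts. The 2 figures are not alike, as a gene was counted with a match in any of its stretches. Hspd1 had its match in only 1 of its stretches. Nor are the 6 genes separate sequences: Hspa1a and Hspa1b have nearly the same stretch, and Hspd1 and Hspe1 share 1 run. No such letters were found before Hspa5 and Dnajb1. Of the 6 genes, 3 were higher in cKO and 2 were lower, against 21.9% and 21.8% of all tested genes. Hspe1 did not pass the threshold. Whether the letters bear on these changes was not tested. 3 of the matches lie in annotated exons of the same or the divergent gene and are shown as 30 bases only: the run of units shared by Hspd1 and Hspe1 (chr1:55088053-55088082, plus strand), the unit pair of Hsph1 (chr5:149636351-149636380, minus strand), and, because Hspa5 answers to ER stress rather than to heat, its ER stress element (chr2:34772019-34772048, plus strand).
Hspe1: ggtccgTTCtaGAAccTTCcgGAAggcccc
Hsph1: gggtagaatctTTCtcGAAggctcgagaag
Hspa5: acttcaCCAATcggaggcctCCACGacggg
The Hspe1 run holds the unit of 3 repeats TTCNNGAANNTTC, which overlaps the pairs and occurs in 0.466% of all stretches. The Hspa5 capitals mark the ends of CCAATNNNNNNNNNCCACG, found in 0.113% of all stretches and, among the members with a stretch, in Hspa5 alone. These matches describe letters and are not evidence of binding.

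Hspa8, the constitutive HSP70 of the cytosol (chr9:40800984-40810087), was far more abundant and changed little. It was at 881, 891 and 932 CPM in WT and at 941, 1039 and 966 CPM in cKO, so the groups did not overlap but came close. The estimated log2 fold change of 0.12 (SE 0.0480, edgeR adjusted p = 0.04999) lies on the threshold. Its call was lost under DESeq2 (adjusted p = 0.0559) and when any library but cKO replicate 1 was left out, with edgeR adjusted p-values of 0.157 without WT replicate 1, 0.154 without WT replicate 2, 0.0546 without WT replicate 3, 0.0882 without cKO replicate 2 and 0.0607 without cKO replicate 3.

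Hspa8 also shares its sequence with processed pseudogenes. In its transcript 74.8% of 50-base stretches occur in other genes, and 11 pseudogene copies, at least 90% identical over at least 50% of the copy, together held 35.3% as many counts as Hspa8. Nearly all of these lay in Gm15459, which is 99.7% identical to Hspa8. The search covered pseudogenes only. Gm26825, annotated as a long noncoding RNA gene and holding 69% of the Hspa8 50-base stretches, was left out. Gm15459 was at 329, 342 and 347 CPM in WT and at 297, 275 and 312 CPM in cKO. It fell by 0.21 on the log2 scale (SE 0.0508, edgeR adjusted p = 0.00491), opposite in sign to Hspa8, and the groups did not overlap. With the counts of the copies added to those of Hspa8, an alternative chosen after seeing the data, the mean was 1257 ± 36.1 CPM for WT and 1292 ± 36.5 CPM for cKO (log2 fold change 0.04, edgeR adjusted p = 0.495). Hspa1a and Hspa1b together made up 7.50 ± 0.627% of the level per exon length of Hspa1a, Hspa1b and Hspa8 in WT and 15.5 ± 1.81% in cKO (exact permutation test, two-sided p = 0.1, the smallest possible). These shares leave out the copies and use merged exons, 4301 bases for Hspa8, whose longest coding transcript has 2394. With the shorter length or the copies added, both shares would be lower.

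**Figure D2:**
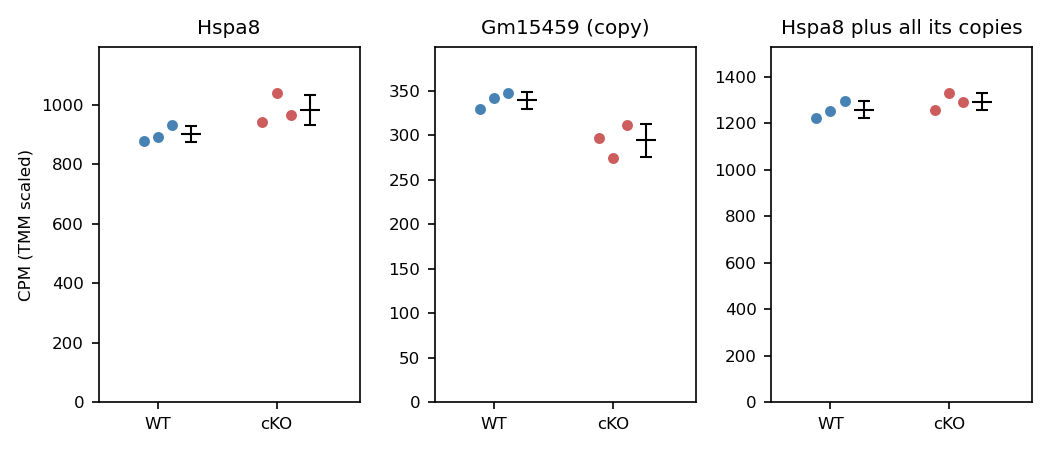
CPM by library of Hspa8, of its pseudogene copy Gm15459, and of Hspa8 with all of its pseudogene copies added, WT in blue and Pbrm1 cKO in red, with the mean and SD of 3 libraries and axes from 0. Hspa8 is slightly higher and Gm15459 slightly lower in cKO, and the sum (1257 and 1292 CPM on average) overlaps.

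Neither of the HSP70 partners among the members rose with Hspa1a and Hspa1b. Dnajb1, the stress-inducible HSP40 that pairs with HSPA1A (chr8:83608193-83612653), was at 91.5, 83.9 and 86.3 CPM in WT and at 89.8, 85.0 and 87.8 CPM in cKO. The groups overlapped almost entirely, and the log2 fold change of 0.00 (SE 0.0501, 95% interval -0.10 to 0.11, edgeR adjusted p = 0.95) was not called. The interval leaves no room for a rise of the size seen in Hspa1a. Hsph1, the HSP110 that exchanges the nucleotide of HSP70 (chr5:149614287-149636376), was at 140.4, 172 and 152 CPM in WT and at 133, 142 and 102 CPM in cKO. It fell by 0.30 on the log2 scale (SE 0.1, edgeR adjusted p = 0.0257), with cKO replicate 3 the lowest of all libraries and cKO replicate 2 above WT replicate 1. That call was lost under DESeq2 (adjusted p = 0.15) and in the edgeR fits without WT replicate 2 (0.127), WT replicate 3 (0.0605) or cKO replicate 3, where the log2 fold change was -0.17 (adjusted p = 0.0721).

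Hsp90aa1, the inducible HSP90 (chr12:110690605-110702728), did not pass the threshold. It was at 660.2, 698 and 711 CPM in WT and at 623, 657 and 643 CPM in cKO, and the highest cKO library was just below the lowest WT library. It had a log2 fold change of -0.11 (SE 0.0449, edgeR adjusted p = 0.0735). The test was passed without WT replicate 1 (adjusted p = 0.0441) or cKO replicate 2 (0.0294). The ratio of Hsp90aa1 to the constitutive Hsp90ab1 per exon length was 0.155 ± 0.00243 in WT and 0.147 ± 0.00502 in cKO (exact permutation test, two-sided p = 0.2). Hspa5, the HSP70 of the ER also known as BiP (chr2:34771970-34777547), was the most abundant member, at 2300, 2310 and 2337 CPM in WT and 2240, 2250 and 2327 CPM in cKO. It had a log2 fold change of -0.03 (SE 0.0415, 95% interval -0.12 to 0.06, edgeR adjusted p = 0.633), and the groups overlapped.

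Hspb1, the small heat shock protein also known as HSP25 in mice (chr5:135887919-135889563), rose. It was at 48.1, 49.5 and 52.8 CPM in WT and at 68.7, 57.6 and 72.0 CPM in cKO. The groups did not overlap, and cKO replicate 2 was nearest to WT. The mean went from 50.1 ± 2.38 to 66.1 ± 7.54 CPM (log2 fold change 0.40, SE 0.0757, edgeR adjusted p = 0.000825). Its pseudogene Hsp25-ps1, 99.8% identical over the aligned part, held 10.5% as many counts and had 6.03 ± 0.307 CPM (WT) and 6.11 ± 0.629 CPM (cKO). With its counts added to Hspb1 the log2 fold change was 0.36 (edgeR adjusted p = 0.00144). Gm9817, annotated as protein coding and holding 43.2% of the Hspb1 50-base stretches, was not added.

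The mitochondrial chaperonin genes parted. Hspd1 (HSP60, chr1:55077835-55088243, minus strand) and Hspe1 (HSP10, chr1:55088132-55091307, plus strand) are transcribed away from each other from a shared region, and their annotated ends overlap by 112 bases. Hspd1 was at 493, 539 and 525 CPM in WT and at 407, 444 and 390 CPM in cKO. Every cKO library was below every WT library, and the mean went from 519 ± 23.1 to 414 ± 27.8 CPM. It fell by 0.33 on the log2 scale (SE 0.0538, 95% interval -0.44 to -0.21, edgeR adjusted p = 0.000271). Hspe1 was at 111, 107 and 116 CPM in WT and at 111, 118 and 116 CPM in cKO. Those groups overlapped, and the log2 fold change of 0.04 (SE 0.0480, 95% interval -0.06 to 0.15, edgeR adjusted p = 0.482) did not pass the threshold. The ratio of Hspd1 to Hspe1 per exon length was 2.48, 2.80 and 2.52 in WT and 2.04, 2.11 and 1.88 in cKO. It was lower in every cKO library (exact permutation test, two-sided p = 0.1, the smallest possible). The size of the ratio holds for merged exons only, 1474 bases for Hspe1, whose longest coding transcript has 774. The pseudogene Hspd1-ps3 fell as well, from 57.0 ± 5.58 to 48.2 ± 3.74 CPM (log2 fold change -0.24, edgeR adjusted p = 0.0197), and with all pseudogene copies added the log2 fold change of Hspd1 was -0.32. In the transcripts of Hspd1 and of Hspe1, 44.8% of 50-base stretches occur in other genes. AC117239.2, annotated as protein coding and holding 35.2% of the Hspe1 stretches, was not added.

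Levels of different genes were compared per kilobase of exon. The length used was that of all annotated exons of a gene merged, which can exceed that of a single transcript. It was 7266 bases for Hsph1, 4301 for Hspa8 and 1474 for Hspe1. Their longest coding transcripts have 3802, 2394 and 774 bases, whereas Hspa1a has 2967 bases by both measures. The order and the overlaps below hold for the merged length only, and the order by transcript length was not tested. In WT the order from high to low was Hspa5 (547.5 ± 4.55 CPM per kb), Hspa8 (209.5 ± 6.30), Hspd1 (196 ± 8.76), Hsp90aa1 (175.5 ± 6.70), Hspe1 (75.6 ± 3.07), Hspb1 (48.6 ± 2.31), Dnajb1 (27.2 ± 1.20), Hsph1 (21.3 ± 2.21), Hspa1b (12.7 ± 0.569) and Hspa1a (4.30 ± 0.536). No neighbours in this order had overlapping ranges. In cKO, Hspa1b at 29.0 ± 2.54 CPM per kb stood level with Dnajb1 at 27.3 ± 0.755, Hspa1a at 12.8 ± 1.62 with Hsph1 at 17.3 ± 2.92, and Hspd1 at 157 ± 10.5 with Hsp90aa1 at 163 ± 4.38, since the ranges of these neighbours overlapped. By mean, Hspa1b moved from place 9 to place 7 and Hspa1a stayed last. The overlaps leave the order of Hspa1b and Dnajb1, and that of Hspa1a and Hsph1, unresolved in cKO. Hspa1a and Hspa1b both remained far below Hspa8 and Hspa5. Reads lost to several mapping places lower the level per kilobase of Hspa1a, Hspa1b, Hspa8 and Hsp90aa1 most, in whose transcripts 58.5 to 74.8% of 50-base stretches occur elsewhere.

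**Figure D3:**
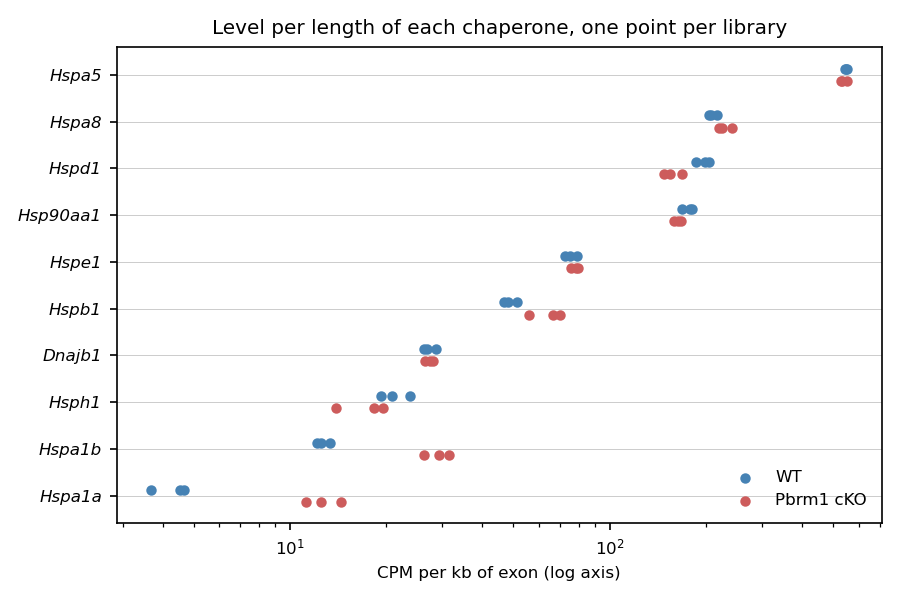
Level per length of the 10 chaperones in CPM per kb of exon on a log axis, ordered by the WT mean, with WT libraries in blue and Pbrm1 cKO libraries in red. Hspa1a and Hspa1b are the lowest in WT (4.30 and 12.7 CPM per kb) and move to the right in cKO, whereas the other 8 genes shift little.

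The other chaperone genes, 104 in 8 lists by role, were taken as a frame for the members. Of the 100 that could be tested, 19 were higher and 19 lower in cKO at an edgeR adjusted p under 0.05, 38.0% against the background of 43.7%. Their median log2 fold change was -0.01, and their median absolute log2 fold change of 0.13 was below the 0.22 of all tested genes. Only 2 of the 100 had an absolute log2 fold change over 1, Hspa1l and Hsbp1l1.

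The heat shock factor genes Hsf1 and Hsf2 did not pass the test. Hsf1, the main heat shock factor, was at 53.5, 49.4 and 47.7 CPM in WT and at 49.2, 51.7 and 44.4 CPM in cKO (log2 fold change -0.05, SE 0.0673, edgeR adjusted p = 0.595). Hsf2 had 25.5 ± 2.09 CPM (WT) and 25.7 ± 1.68 CPM (cKO) (log2 fold change 0.01, edgeR adjusted p = 0.908). Both had overlapping groups. Of 5 tested genes in this list 1 was called, against 43.7% of all tested genes. It was Hsbp1l1, a relative of the heat shock factor binding protein gene Hsbp1. Hsbp1l1 went from 31, 43 and 37 counts in WT to 8, 6 and 10 counts in cKO (log2 fold change -2.17, SE 0.294, edgeR adjusted p = 5.13e-05).

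Of the other cytosolic HSP70, HSP90 and HSP110 genes 3 of 8 rose and 1 fell, with a median of 0.22. Of all tested genes 21.9% rose and 21.8% fell at this threshold. Hspa4l, an HSP110, rose from 68.5 ± 4.81 to 95.5 ± 3.08 CPM (log2 fold change 0.48, edgeR adjusted p = 1.72e-05), while Hspa4, its close relative and the more abundant, fell from 1087 ± 38.6 to 833 ± 53.3 CPM (log2 fold change -0.38, adjusted p = 4.81e-05). Hspa12a, a distant HSP70, rose by 0.38. Hspa1l, an HSP70 gene known mainly from the testis that lies next to Hspa1a, had only 4, 4 and 8 counts in WT and 16, 17 and 9 in cKO (log2 fold change 1.38, SE 0.410, adjusted p = 0.0144). Its call was lost under DESeq2 (0.0965) and without WT replicate 1 (0.0605), WT replicate 2 (0.0722) or cKO replicate 1 (0.0542).

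Of 10 other HSP40 genes 2 rose and 3 fell, against 21.9% and 21.8% of all tested genes. Dnajb5, from 9.77 ± 0.258 to 15.9 ± 2.40 CPM, had the largest change (log2 fold change 0.70, edgeR adjusted p = 0.000247), and Dnajc7, which links HSP70 to HSP90, fell by 0.26 on the log2 scale (adjusted p = 0.00217). Dnaja4 (-0.29) and Dnajb2 (0.19) passed as well but lost their calls under DESeq2 (adjusted p = 0.0757 and 0.125) and without WT replicate 1 (0.0718 and 0.161), WT replicate 2 (0.108 and 0.0807) or, of the cKO libraries, replicate 3 for Dnaja4 (0.0666) and replicates 1 and 2 for Dnajb2 (0.156 and 0.0627). Dnajb2 also lost its call under upper quartile scaling (0.0542) and with no filter (0.0649). Of 21 cochaperones 7 were lower, against 21.8% of all tested genes, 1 was higher and 13 did not pass the threshold, with a median of -0.05. The 4 largest changes were falls of Fkbp5 (-0.50, from 122 ± 5.63 to 86.0 ± 10.6 CPM), Bag2 (-0.49, from 70.2 ± 0.680 to 49.9 ± 2.04 CPM), Fkbp4 (-0.45, from 305 ± 3.95 to 223 ± 14.0 CPM) and Ppid (-0.36, from 135 ± 3.67 to 105 ± 5.85 CPM). Fkbp5, Fkbp4 and Ppid encode immunophilins that bind HSP90 in steroid receptor complexes, and Bag2 encodes a nucleotide exchange factor of HSP70. These 4 calls were kept in all 15 alternative fits.

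The other small heat shock protein genes were higher in 4 of 5 tested members, against 21.9% of all tested genes. None was lower, and the median was 0.28. Cryab, the most abundant, went from 714, 726 and 744 CPM in WT to 866, 856 and 864 CPM in cKO (log2 fold change 0.24, edgeR adjusted p = 0.000313). Hspb8 rose by 0.28 on the log2 scale (adjusted p = 0.000199) and Hspb2 by 0.59 (adjusted p = 0.00086). Hspb6 rose by 0.55 (adjusted p = 0.022), but lost its call under DESeq2 (0.107) and without WT replicate 1 (0.0823), WT replicate 2 (0.0591) or cKO replicate 1 (0.115). Cryaa, Hspb3 and Hspb9 had too few counts to be tested. Hspb2 and Cryab lie head to head on opposite strands with overlapping annotations, and the counting used the strand.

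Of the 14 genes of the cytosolic chaperonin TRiC and its partner prefoldin, 4 were lower and 1 higher, with a median of -0.10. Of all tested genes 21.8% were lower and 21.9% higher. The changes in this list were small: Cct7, Cct8 and Cct4 fell by 0.15 each and Pfdn5 rose by 0.21. All 4 of these calls were lost in at least 1 fit that left out a library, with edgeR adjusted p-values of up to 0.0554 for Cct7 (without cKO replicate 1), 0.0642 for Cct8 (without WT replicate 3), 0.101 for Cct4 (without cKO replicate 1) and 0.0735 for Pfdn5 (without WT replicate 1). Of 14 other mitochondrial chaperones and proteases 2 were lower and 1 higher, against the same shares of all tested genes. Clpp, a matrix protease, fell by 0.25 on the log2 scale (edgeR adjusted p = 0.00725). Its unfoldase partner Clpx was 0.15 higher (adjusted p = 0.0366), a call lost without WT replicate 1 (0.147) or 2 (0.133) or cKO replicate 1 (0.0836) or 3 (0.0803), and also under DESeq2 (0.109), upper quartile scaling (0.0515) and with no filter (0.0873). Hspa9, the mitochondrial HSP70, went from 886 ± 24.2 to 817 ± 24.8 CPM (log2 fold change -0.12, adjusted p = 0.0452), with a call that was lost without WT replicate 2 (0.123) or 3 (0.144) or cKO replicate 1 (0.186) or 3 (0.0768), and with scaling by library size only (0.0765). Of 23 other ER chaperone and unfolded protein response genes, 7 were higher and 1 lower, against 21.9% and 21.8% of all tested genes. Their median was 0.07. P4hb, a protein disulfide isomerase, rose from 1496 ± 9.55 to 1796 ± 56.3 CPM (log2 fold change 0.26, edgeR adjusted p = 0.000228) and Hspa13 rose by 0.18 (adjusted p = 0.00452). Ddit3 (CHOP), a transcription factor of the stressed ER, rose by 0.32 (adjusted p = 0.0123, but 0.065 under DESeq2 and 0.0575 without WT replicate 3). Sil1, the nucleotide exchange factor of Hspa5, rose by 0.29 (adjusted p = 0.0151, but 0.053 under DESeq2 and 0.0761 without WT replicate 1).

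**Figure D4:**
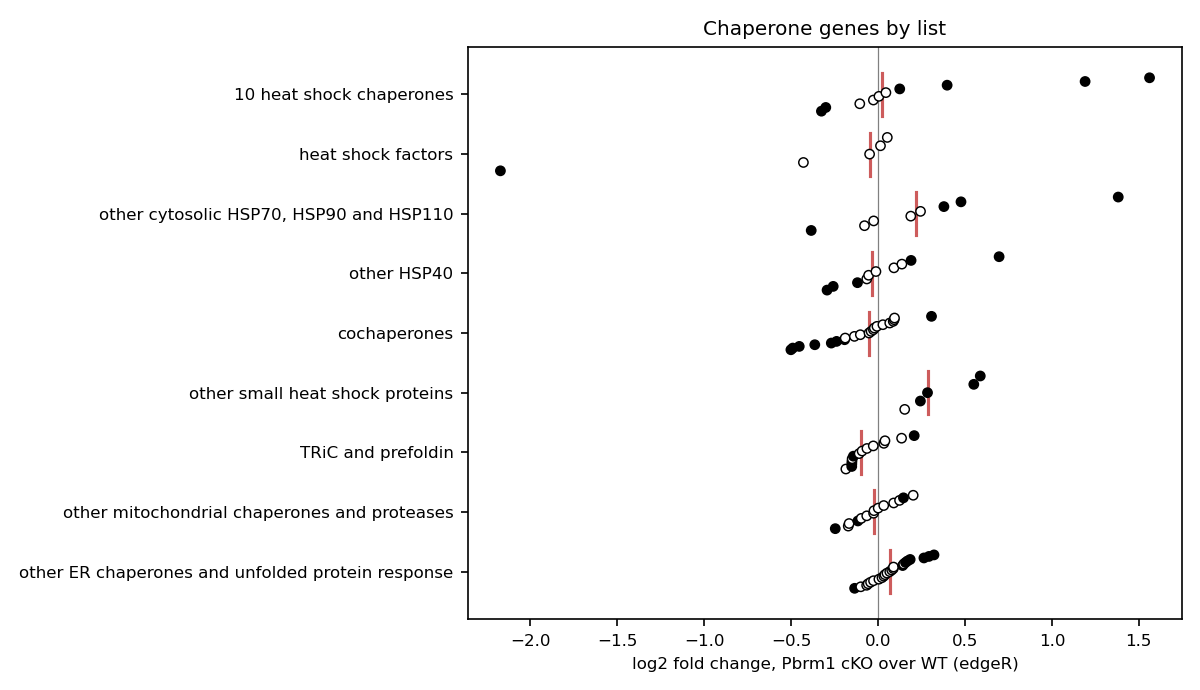
Log2 fold change (Pbrm1 cKO over WT, edgeR) of each tested chaperone gene by list, filled where the adjusted p was under 0.05 and open elsewhere, with the median of each list as a red bar. Most genes lie within 0.5 of 0, and Hspa1a (1.56), Hspa1b (1.19), Hspa1l (1.38) and Hsbp1l1 (-2.17) stand outside.

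Immediate early genes, like Hspa1a and Hspa1b, are known to respond within hours to dissociation and culture. Of 14 such genes 7 were higher in cKO, against 21.9% of all tested genes, 1 was lower (Fosb, -0.44) and 6 did not pass the threshold. Their median was 0.16 on the log2 scale, and they had a summed level of 815 to 903 CPM in WT and 976 to 1092 CPM in cKO. Socs3, a feedback inhibitor of cytokine signaling, rose by 1.27 on the log2 scale, Fos by 0.85 and Dusp1, a MAP kinase phosphatase, by 0.76 (edgeR adjusted p = 2.53e-07, 9.83e-07 and 2.33e-05). All 3 had separate groups, as 53.5% of all tested genes did, and they were named as the called genes of largest change in this list. Whether their change bears on that of the HSP70 genes was not tested.

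Several marker lists of cell types moved with the groups too. Of all tested genes 21.9% were higher and 21.8% lower at the threshold. Smooth muscle markers were higher in 6 of 8 and lower in 1. Fibroblast markers were higher in 4 of 6 and lower in 1 (summed level 1157 to 1172 CPM in WT and 1954 to 2072 CPM in cKO), leukocyte markers were higher in 7 of 7 tested (707 to 758 CPM and 1072 to 1163 CPM), and epithelial markers were higher in 5 of 7 (758 to 826 CPM and 895 to 998 CPM). Of 5 endothelial markers 1 was higher and 1 lower, near the shares of all tested genes (277 to 297 CPM and 212 to 228 CPM). Mesothelial markers were lower in 3 of 4 (146 to 154 CPM and 97.8 to 99.2 CPM). No marker was at 0 in all libraries, and Cd3e, of T cells, was too low to test. Among smooth muscle, leukocyte and epithelial markers the largest log2 fold changes were 1.21 (Des), 1.38 (Cd74) and 1.07 (Epcam). Among fibroblast and endothelial markers they were 1.47 (Col14a1) and 1.71 (Vwf). The 1 marker called lower was Smtn (-0.29) in the smooth muscle list and Dpt (-0.65) in the fibroblast list. In the endothelial list it was Kdr (-0.87, from 182 to 99.4 CPM on average). Among mesothelial markers the largest change was a fall of Upk1b (-0.86). The part of cell composition in the chaperone results was not tested.

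The genes around Hspa1a and Hspa1b and around Hspd1 and Hspe1 were looked at within 100 kb, a window chosen after values were seen. Around Hspa1a and Hspa1b, 13 other genes were tested, of which 4 were higher in cKO and none lower. Of all tested genes 21.9% were higher and 21.8% lower. The median over the 13 was -0.04. Hspa1l, whose start lies on the other strand next to that of Hspa1a, had the largest change of the 13, followed by Slc44a4, a choline transporter family gene (0.77, edgeR adjusted p = 0.000612), and Ddah2 (0.76, adjusted p = 1.69e-05). Clic1 (0.12, adjusted p = 0.0498) was on the threshold. The genes nearest on the other side, 1110038B12Rik (0.03) and Neu1 (0.19), did not pass it. Around Hspd1 and Hspe1, 5 other genes were tested: Rftn2 was higher (0.59, adjusted p = 0.000299), Coq10b, of coenzyme Q biology, was lower (-0.18, adjusted p = 0.00802), and the other 3 did not pass the threshold.

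**Figure D5:**
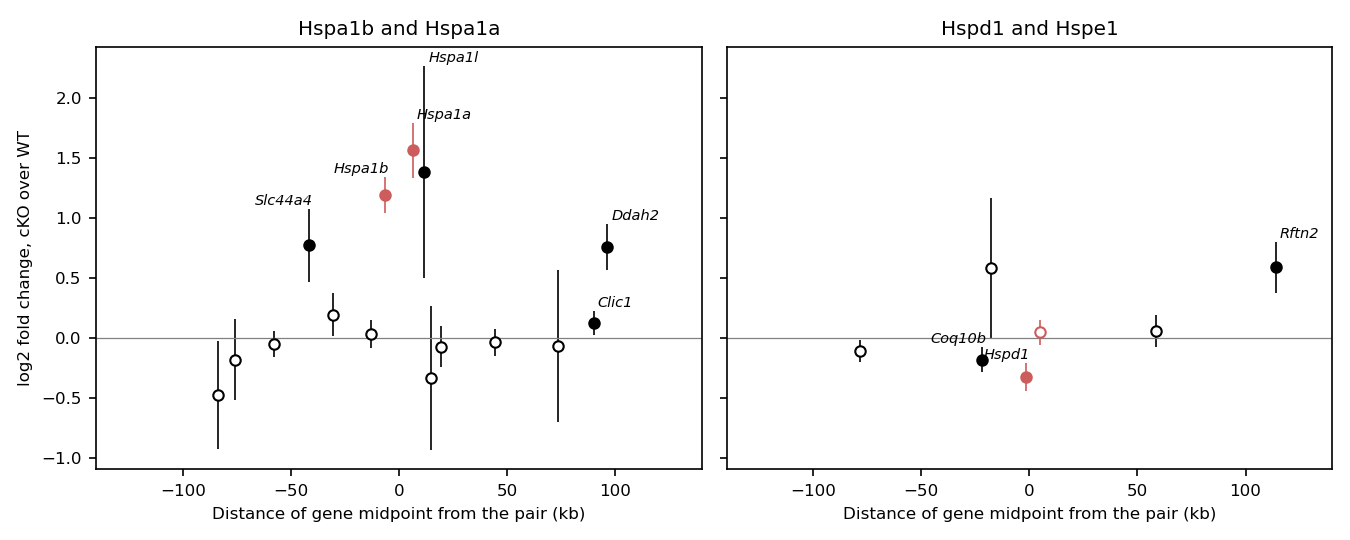
Log2 fold change (Pbrm1 cKO over WT) with its 95% interval of the tested genes within 100 kb of Hspa1a and Hspa1b (left) and of Hspd1 and Hspe1 (right), against the distance of the gene's midpoint from the pair in kb, with the chaperones in red and filled points for an edgeR adjusted p under 0.05. On the left Hspa1a, Hspa1b and Hspa1l stand above their neighbours, most of which lie near 0.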

How the data were processed

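RNA-seq counts of 3 WT and 3 Pbrm1 cKO libraries were analysed. The authors deposited 1 table of whole-number counts per gene, made per the file headers with featureCounts 1.6.4 over exons in reverse-stranded mode on GENCODE M18 annotation; the submitters' processing notes also name cutadapt, HISAT2 and GRCm38.p5, and reads mapping to several places are left out by default. Exon lengths came from the same table. The main test was edgeR's two-sided quasi-likelihood F-test (version 4.0.16, R 4.3.3), with libraries scaled by trimmed mean of M values, genes kept by filterByExpr and p-values adjusted by Benjamini-Hochberg over 15376 genes, with a threshold of 0.05; the SE was the absolute log2 fold change over the square root of F. DESeq2 1.42.0 and limma 3.58.1 (voom), 3 other scalings, 2 other filters, a replicate block, leaving out mitochondrially encoded genes and leaving out each library were alternatives. Replicates differed beyond sampling noise (chi-square per gene 1.31 to 1.60), the 95% intervals of log2 fold changes come from the edgeR SE and include the spread between libraries, and limits of 3 counts cover counting error only. Same-numbered libraries did not deviate together (r from -0.02 to 0.09), so numbers were not taken as pairs. Named genes were the 10 members, Pbrm1, Hsf1, Hsf2, up to 4 called genes of largest change per chaperone list and up to 3 per marker list; genes named for their position or as pseudogene copies were chosen after values were seen. The members and lists were chosen with earlier results of these data known. Pseudogene copies were searched with BLAST 2.17.0 in GENCODE transcripts, and sequences come from RefSeq on GRCm38.p6.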

Additional observations from a re-analysis of the deposited data

How the results depend on the processing

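Hspa1a (log2 fold change 1.46 to 1.65), Hspa1b (1.13 to 1.26), Hspb1 (0.33 to 0.49), Hspd1 (-0.38 to -0.29) and Pbrm1 (-2.02 to -1.89) kept their direction and their call in every alternative run for them. The fit of Hspa1a and Hspa1b added together, left out of these ranges because it is 1 value for the pair, gave 1.30. Hspa8, at 0.12, lost its call under DESeq2 (0.12), RLE scaling (0.12), upper quartile scaling (0.11), the filter of 10 counts in every library (0.12) and with pseudogene copies added (0.0399); fits without 1 library gave 0.0864 to 0.155. Hsph1 lost its call under DESeq2 (-0.31), and fits without 1 library gave -0.39 to -0.17. Hsp90aa1 gained a call with voom (-0.11) and upper quartile scaling (-0.12), and fits without 1 library gave -0.138 to -0.084. Dnajb1 had the opposite sign, never called, under upper quartile scaling (-0.0071), with no filter (-0.0052) and in fits without 1 library (-0.0234 to 0.0382); Hsf1 (-0.0942 to 0.0084) and Hsf2 (-0.0447 to 0.0735) changed sign in such fits only. The causes were not tested. The number of chaperones called was 4 to 7 in all alternatives but the rule that also asked for a change over 0.5 on the log2 scale, which left 2, both higher, of 10 members and 2585 of 6723 genes. The number lower, 2, was 1 under DESeq2 and at an adjusted p under 0.01, 0 under the 0.5 rule, 3 with voom and upper quartile scaling, and 1 to 3 without 1 library. With the replicate number as a block 6908 genes were called, 6617 of them among the 6723, and 6 chaperones, so the block changed no call of a member. Of 50 other named genes, 15 changed call or sign in at least 1 setting. Depth limits Hspa1l, with 4 to 17 counts per library.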
